A study of Mus musculus with 24 samples.

Results

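The genes described here write, maintain, recognise and remove methyl groups on cytosine in DNA. They were listed by symbol and are Dnmt1, Dnmt3a, Dnmt3b, Uhrf1, Tet1, Tet2 and Tet3, 7 of the 55254 genes counted. Nuclear RNA came from the hippocampus of C57BL/6N mice aged 6 months, and the nuclei were sorted with an antibody against NeuN into a neuronal NeuN+ fraction and a non-neuronal NeuN- fraction. Each fraction was sequenced in 3 replicates of WT mice, of mice labelled Mutyh-/-, of mice labelled Ogg1-/- and of the double knockout (DKO), which gave 8 groups and 24 libraries. Mutyh and Ogg1 encode DNA glycosylases that act on mispairs and lesions of oxidised guanine, and the comparisons address whether their loss alters the RNA of these genes in either fraction. No group carried a further allele or treatment according to the labels. The study pooled nuclei of 3 animals per genotype, and it is not clear whether a replicate is an animal, a pool or part of a pool, so the p-values measure the spread between these libraries, which may be technical.

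DNMT3A and DNMT3B place methyl groups on unmethylated DNA. DNMT1 copies the pattern to the new strand after replication, and UHRF1 recognises half-methylated DNA and brings DNMT1 to it. The TET enzymes oxidise the methyl group, which starts its removal. In the brain, neurons no longer divide, DNMT3A lays down much of the neuronal methylation after birth, and the oxidised form 5-hydroxymethylcytosine is abundant in neurons.

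Dnmt1 (ENSMUSG00000004099) lies at chr9:20907209-20959888 on the minus strand and Uhrf1 (ENSMUSG00000001228) at chr17:56303321-56323486 on the plus strand, in GRCm38. Dnmt3a (ENSMUSG00000020661) spans chr12:3806007-3914443 and Dnmt3b (ENSMUSG00000027478) chr2:153649450-153687730, both on the plus strand. Tet1 (ENSMUSG00000047146) at chr10:62804570-62908996, Tet2 (ENSMUSG00000040943) at chr3:133463679-133545139 and Tet3 (ENSMUSG00000034832) at chr6:83362373-83459084 are on the minus strand. Exons of antisense genes share 133 bases with Dnmt3a (0.799% of its exonic length) and 43 bases with Tet2 (0.255%), and the other members share 0 exonic bases with a neighbour.

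The upstream sequences of 3 members are shown because these genes carry the largest cell-type difference (Uhrf1), the genotype difference with the smallest p (Dnmt3b) and the smallest cell-type difference (Tet2). Each is the 250 bases before a RefSeq start site in GRCm38.p6, 5′ to 3′ on the strand of the gene, with CpG sites, the substrate of these enzymes, in capitals. For Uhrf1 the window is chr17:56304063-56304312 (plus), the second of 2 start sites. For Dnmt3b it is chr2:153649199-153649448 (plus), and for Tet2 it is chr3:133544391-133544640 (minus).
Uhrf1: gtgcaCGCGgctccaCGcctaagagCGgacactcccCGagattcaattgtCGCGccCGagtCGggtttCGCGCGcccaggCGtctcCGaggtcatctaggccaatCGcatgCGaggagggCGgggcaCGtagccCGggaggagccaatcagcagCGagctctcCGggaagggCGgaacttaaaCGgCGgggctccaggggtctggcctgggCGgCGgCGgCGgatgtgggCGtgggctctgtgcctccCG
Dnmt3b: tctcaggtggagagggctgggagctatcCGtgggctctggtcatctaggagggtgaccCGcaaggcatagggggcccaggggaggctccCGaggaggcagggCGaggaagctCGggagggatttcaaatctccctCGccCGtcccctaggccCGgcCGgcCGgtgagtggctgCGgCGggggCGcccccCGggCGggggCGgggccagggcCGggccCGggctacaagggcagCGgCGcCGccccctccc
Tet2: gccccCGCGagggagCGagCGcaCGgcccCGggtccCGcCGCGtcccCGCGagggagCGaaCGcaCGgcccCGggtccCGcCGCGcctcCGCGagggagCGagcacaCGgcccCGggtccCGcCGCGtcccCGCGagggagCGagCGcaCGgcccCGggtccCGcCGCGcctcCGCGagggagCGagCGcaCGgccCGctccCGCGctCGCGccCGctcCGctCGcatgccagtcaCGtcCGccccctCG

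All 7 members matched a start site, with 12 windows in all. The Tet2 window held 51 CpG sites, the Uhrf1 window 30 and the Dnmt3b window 21, against a median of 6 over all 32851 windows of the same length. Fewer CpG sites were found in 99.9% of all windows than in the Tet2 window, in 94.1% than in the Uhrf1 window and in 83.7% than in the Dnmt3b window. The single windows of Tet3 and Tet1 held 17 and 15, the 3 windows of Dnmt3a held 38, 40 and 15, the 3 of Dnmt1 held 2, 7 and 26, and the first Uhrf1 window held 10. The letters TTTCGCGC, a form of the E2F motif, and TTTGGCGC, another form, were searched on both strands after the sequences had been seen. The first was present in 2 of the 12 windows, at base 66 of the Uhrf1 window shown (plus strand) and at base 32 of the third Dnmt1 window (minus strand), and in 0.256% of all windows. The second was present in 0 of the 12 windows and in 0.417% of all. Neither DNA methylation nor factor binding at these windows was analysed here, and a match of letters is not a site.

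Total counts per library were 56563586 to 96192142 in NeuN+ and 56982273 to 92409869 in NeuN-. In WT, 6 of 6 neuronal markers were higher in NeuN+. Of 3 markers of dentate granule neurons, C1ql2 and Dsp were higher in NeuN+ (log2 differences, NeuN+ minus NeuN-, of 2.68 and 3.37). Prox1 went the other way by less than 2-fold (-0.34). In NeuN-, 5 of 5 markers each of astrocytes, oligodendrocytes and microglia, 3 of 3 each of oligodendrocyte precursors and endothelial cells and 2 of 3 of choroid plexus were higher, as the labels of the fractions say. Mutyh RNA divided the libraries by label, but it was higher, not lower, in those labelled Mutyh-/- and DKO. In NeuN+ it was 9.88 to 11.5 CPM (normalised counts, scaled to a common library size) in Mutyh-/- and 8.47 to 12.2 in DKO. WT had 1.15 to 1.28 and Ogg1-/- 1.15 to 1.41. In NeuN-, Mutyh was 9.28 to 9.71 in Mutyh-/- and 6.65 to 9.22 in DKO, against 2.39 to 2.82 in WT and 2.92 to 3.29 in Ogg1-/-. Ogg1 RNA was 3.21 to 3.66 CPM in Ogg1-/- and 3.25 to 3.51 in DKO, against 2.77 to 3.77 in WT of NeuN+, and 5.89 to 6.56 and 5.63 to 7.13 against 5.70 to 6.43 in NeuN-. A count per gene does not tell the exons that were read, so the genotype names below are those of the library labels.

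The order of the members by level per length was Dnmt3a, Tet3, Tet2, Dnmt1, Tet1, Dnmt3b and Uhrf1, and it was the same in all 8 groups. Levels are CPM per kilobase of exonic length. In WT NeuN+, Dnmt3a stood at 12.3 ± 0.758 (SD, n = 3), Tet3 at 8.95 ± 0.507, Tet2 at 5.56 ± 0.110 and Dnmt1 at 4.31 ± 0.232. Tet1 followed at 1.14 ± 0.0502, Dnmt3b at 0.333 ± 0.0276 and Uhrf1 at 0.0831 ± 0.0241. The de novo enzyme DNMT3A thus had the highest RNA level per length and the DNMT1 partner UHRF1 the lowest.

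In WT NeuN- the levels per length were 14.7 ± 0.675 for Dnmt3a, 11.3 ± 0.383 for Tet3, 5.95 ± 0.112 for Tet2 and 5.40 ± 0.256 for Dnmt1. They were 3.56 ± 0.0552 for Tet1, 1.03 ± 0.0719 for Dnmt3b and 0.405 ± 0.0231 for Uhrf1. Over the 8 groups, the ranges of neighbours in the order overlapped in 0 of 48 pairs. The same counts divided by genomic span, a length that includes introns, gave the same order.

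**Figure D1:**
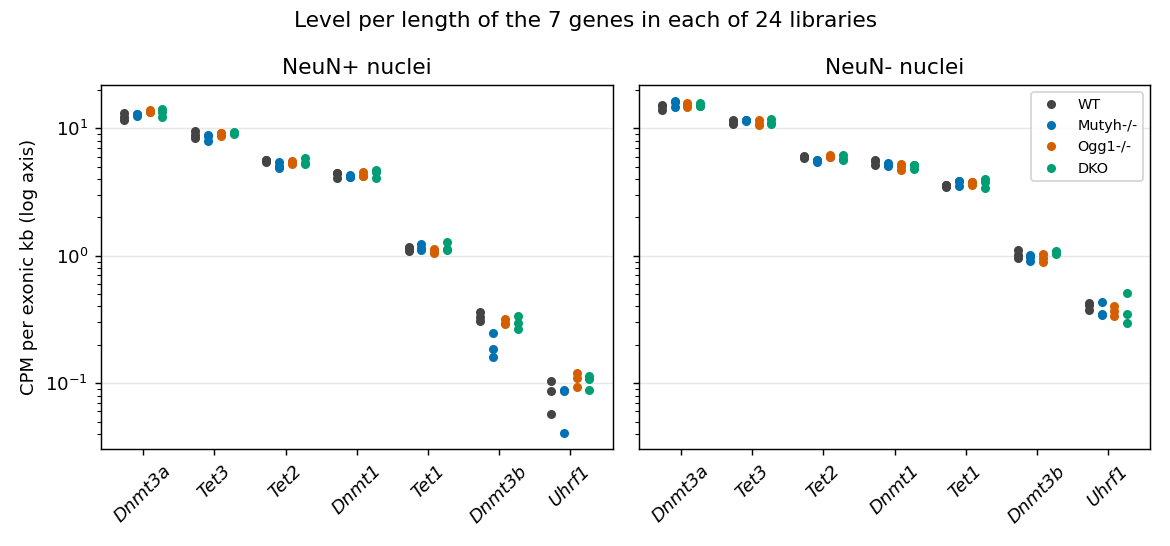
Level of each gene in CPM per kilobase of exonic length (log axis) in the 12 NeuN+ libraries (left) and the 12 NeuN- libraries (right), 1 point per library, coloured by genotype. The order from Dnmt3a to Uhrf1 is the same in both fractions, and Tet1, Dnmt3b and Uhrf1 sit lower in NeuN+ than in NeuN-.

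Uhrf1, Tet1 and Dnmt3b were lower in neuronal than in non-neuronal nuclei of WT, by 4.85, 3.13 and 3.09 times. Tet3, Dnmt1 and Dnmt3a were lower by 1.26, 1.25 and 1.19 times with adjusted p under the limit but under the 2-fold limit for a cell-type call, and Tet2 did not pass. In bulk fractions, fewer nuclei of a type that makes the RNA and less RNA per nucleus cannot be told apart. According to the labels, NeuN+ and NeuN- libraries also ran on different sequencing lanes, so the fraction cannot be told apart from the lane.

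Among the genes of maintenance methylation, Uhrf1 was 0.243, 0.373 and 0.446 CPM in the 3 WT NeuN+ libraries and 1.61, 1.75 and 1.80 in the 3 WT NeuN- libraries. The ranges lay far apart, although the NeuN+ values rest on 15 to 27 counts per library. The log2 difference, NeuN+ minus NeuN-, was -2.28 ± 0.24 (SE), with an adjusted p of 1.08e-08 (edgeR's quasi-likelihood test). Dnmt1, the enzyme that UHRF1 brings to DNA, was 29.8, 32.8 and 32.7 CPM in WT NeuN+ and 37.7, 40.6 and 41.3 in WT NeuN-, again without overlap. Its log2 difference was only -0.33 ± 0.058 (adjusted p = 2.75e-05).

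The de novo enzymes differed from each other in size of the cell-type difference. Dnmt3b was 1.57, 1.68 and 1.85 CPM in WT NeuN+ and 4.93, 5.18 and 5.65 in WT NeuN-, a log2 difference of -1.63 ± 0.12 (adjusted p = 1.91e-11). Dnmt3a was 193, 203 and 218 CPM in WT NeuN+ and 232, 249 and 253 in WT NeuN-, a log2 difference of -0.26 ± 0.056 (adjusted p = 3.42e-04). Neither gene's groups overlapped. Of the summed Dnmt3a and Dnmt3b level per length, Dnmt3b made up 1.21 to 3.02% (median 2.14%) in the 12 NeuN+ libraries and 5.28 to 6.90% (median 6.42%) in the 12 NeuN- libraries. This share is taken within a library, so it does not depend on the scaling between libraries.

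Of the TET genes, Tet1 showed the large difference. It was 16.7, 17.7 and 18.2 CPM in WT NeuN+ and 54.0, 55.4 and 55.6 in WT NeuN-, a log2 difference of -1.65 ± 0.066 (adjusted p = 3.41e-16). Tet3 was 141, 149 and 158 CPM in WT NeuN+ and 181, 192 and 193 in WT NeuN- (log2 difference -0.34 ± 0.052, adjusted p = 4.55e-06). Tet2 was 91.7, 94.5 and 95.2 CPM in WT NeuN+ and 98.3, 101 and 102 in WT NeuN-. Its log2 difference of -0.10 had a 95% interval of -0.20 to 0.01 and an adjusted p of 0.0908, so it did not pass although the groups did not overlap.

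Tet1 made up 6.68 to 8.18% of the summed TET level per length in the 12 NeuN+ libraries (median 7.49%) and 17.0 to 19.3% in the 12 NeuN- libraries (median 17.4%). Tet2 made up 33.6 to 37.0% in NeuN+ and 26.2 to 30.2% in NeuN-, whereas Tet3 was the main TET gene in both, with 55.5 to 58.7% and 52.4 to 55.3%. The NeuN+ and NeuN- ranges of each of these shares did not overlap. These shares and that of Dnmt3b were computed after the values had been seen and were not tested.

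**Figure D2:**
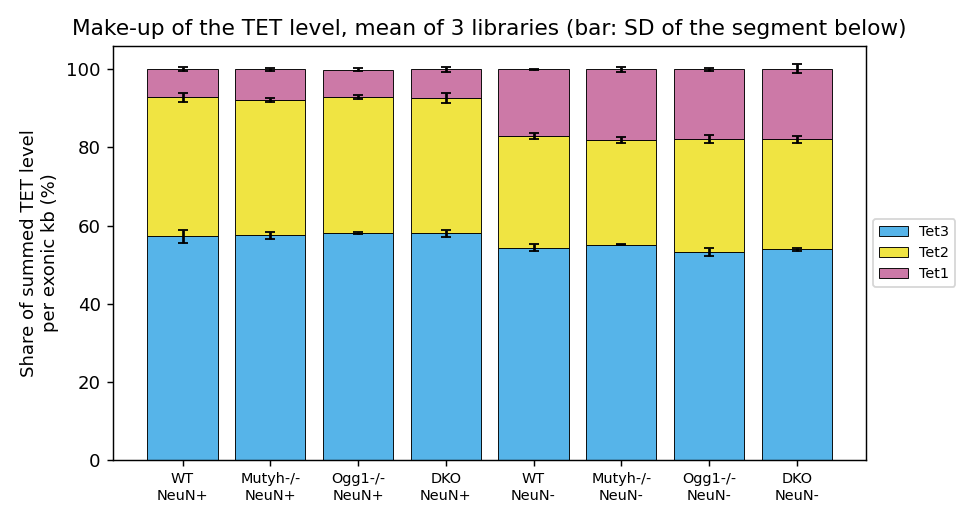
Share of Tet1, Tet2 and Tet3 in their summed level per exonic kilobase, in percent, as the mean of the 3 libraries of each group; each error bar is the SD of the segment that ends there. The Tet1 segment is 7.05 to 7.88% in the 4 NeuN+ groups and 17.1 to 18% in the 4 NeuN- groups.

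With the limit of 1 on the log2 scale, 3 of 7 members were called higher in WT NeuN-, against 21.6% of all 33523 genes tested. By adjusted p alone 6 of 7 members passed in that direction, against 36.3% of all genes. The median log2 difference of the members was -0.34, against -0.014 over all genes. The WT groups did not overlap for 7 of 7 members and for 76.1% of all genes. Scaling by library totals moved the median of all genes to -0.246. Relative to that median, Uhrf1 stood at -2.26, Tet1 at -1.63, Dnmt3b at -1.61, Tet3 at -0.32, Dnmt1 at -0.31, Dnmt3a at -0.24 and Tet2 at -0.09. Subtracting the median removes the scaling itself, so these values are no separate evidence of direction.

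The same 3 genes, and no other member, were called in each knockout. Of all genes, 22.1% were called higher in NeuN- of Mutyh-/-. The share was 22.2% for Ogg1-/- and 23.6% for DKO. Of these 3 genes, Tet1 varied least over the 4 genotypes, with log2 differences from -1.77 to -1.65. Dnmt3b ranged from -2.26 in Mutyh-/- to -1.63 in WT, and Uhrf1 from -2.34 in Mutyh-/- to -1.77 in Ogg1-/-, with intervals that overlapped for Uhrf1. Tet2 was lower in NeuN+ by adjusted p alone in Mutyh-/- (-0.12, adjusted p = 0.0367) and Ogg1-/- (-0.16, adjusted p = 0.00667) and did not pass in DKO (-0.09, adjusted p = 0.118).

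**Figure D3:**
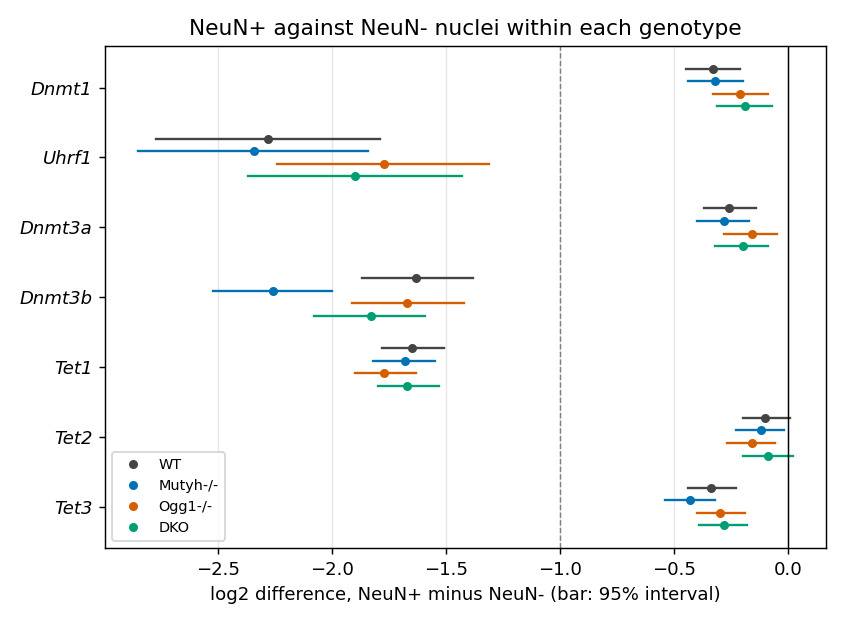
Log2 difference between NeuN+ and NeuN- nuclei within each genotype for the 7 genes; points are edgeR estimates and bars their 95% intervals, the solid line marks 0 and the dashed line the call limit of -1. Uhrf1, Dnmt3b and Tet1 lie left of the dashed line in all 4 genotypes, and Dnmt1, Dnmt3a, Tet2 and Tet3 lie between it and 0.

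Genes of dividing cells did not move together between the fractions. Top2a, Ccnb1 and Cdk1, which serve chromosome separation and mitotic entry, were higher in WT NeuN- (log2 differences of -4.45, -3.33 and -5.23), while Mki67 was higher in NeuN+ by adjusted p alone (0.80). The summed CPM of these 4 genes was 7.74 to 8.75 in WT NeuN+ and 6.05 to 8.83 in WT NeuN-, and 2 of the 4 were at 0 counts in at least 1 WT NeuN+ library. The part of dividing cells in the differences of Uhrf1, Dnmt1 and Dnmt3b was not tested.

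None of the 7 members was called in any knockout against WT, with a call at an adjusted p under 0.05 and a log2 difference beyond 0.5. In NeuN+, 0 of 7 were called in Mutyh-/-, Ogg1-/- and DKO, against 0.428%, 0.574% and 0.302% of the 30132 genes tested. In NeuN-, 0 of 7 were called, against 0.273%, 0.229% and 0.116% of 31863 genes. At these backgrounds a count of 0 among 7 genes is near the share over all genes. By edgeR's quasi-likelihood test, 3 of the 42 comparisons had an unadjusted p under 0.05, a smaller share than the 11.8 to 18.7% of all genes in the 6 comparisons. By DESeq2, 1 member was called in Mutyh-/- of NeuN+ and 0 in the other 5 comparisons.

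For the 5 members other than Dnmt3b and Uhrf1, all 30 log2 differences from WT lay between -0.12 and 0.13, and their 95% intervals between -0.24 and 0.25. Differences from WT beyond 0.5 on the log2 scale lay outside every one of these intervals. Uhrf1, with its low counts, was measured less closely, with intervals that reached from -0.84 to 0.97.

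Dnmt3b in NeuN+ nuclei of Mutyh-/- was the member nearest to a call. It was 1.57, 1.68 and 1.85 CPM in WT and 0.946, 0.813 and 1.27 CPM in Mutyh-/-, from 95 to 114 counts per library in WT and 42 to 91 in Mutyh-/-. The groups did not overlap, which held for 21.6% of all genes in this comparison, and the third Mutyh-/- library was nearest to WT. The log2 difference was -0.73 ± 0.16 (95% interval -1.07 to -0.38), with an unadjusted p of 4.40e-04 and an adjusted p of 0.0542, so it did not pass by edgeR's quasi-likelihood test. Of 8 other settings it passed in 4. These were DESeq2 (adjusted p = 0.0163), edgeR's likelihood ratio test (0.00387), no filter on low counts (0.0130) and library totals (0.0454). It did not pass with RLE scaling, at least 10 counts in every library, the replicate number as a block or only the 2 genotypes compared (adjusted p up to 0.078). Over all genes, DESeq2, the likelihood ratio test and no filter called 385, 564 and 625, against 129 in the main fit. Without Mutyh-/- NeuN+ replicate 3 the difference was -0.93 (adjusted p = 0.00801), and it also passed without DKO NeuN+ replicate 1 (0.0367) or replicate 3 (0.0433). Over all fits without 1 library it ranged from -0.93 to -0.61, with adjusted p from 0.00801 to 0.206.

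Ogg1-/- and DKO did not share the low Dnmt3b values in NeuN+. The CPM were 1.62, 1.49 and 1.52 in Ogg1-/- and 1.72, 1.36 and 1.51 in DKO, all above the Mutyh-/- libraries. The log2 differences from WT were -0.16 (95% interval -0.48 to 0.17, adjusted p = 0.743) and -0.17 (-0.49 to 0.16, adjusted p = 0.674). Dnmt3b in Ogg1-/- minus Mutyh-/- was 0.57 ± 0.16 with an adjusted p of 0.154, and 0.78 with 0.0224 without Mutyh-/- NeuN+ replicate 3. In DKO minus Mutyh-/- it was 0.56 ± 0.16, with an adjusted p of 0.493. These contrasts share the Mutyh-/- libraries.

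In NeuN-, Dnmt3b was 4.93 to 5.65 CPM in WT and 4.62 to 5.18 in Mutyh-/-. It was 4.55 to 5.26 in Ogg1-/- and 5.31 to 5.53 in DKO, with overlap between WT and each knockout. The log2 difference of Mutyh-/- from WT was -0.10 (95% interval -0.28 to 0.07, adjusted p = 0.609). The effect in NeuN+ minus that in NeuN- was -0.64 ± 0.17, with an unadjusted p of 0.00125 and an adjusted p of 0.277. Without Mutyh-/- NeuN+ replicate 3 it was -0.85 with an adjusted p of 0.0475. A difference between the fractions in the Mutyh-/- effect therefore did not pass with all libraries.

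Since Dnmt3b was higher in NeuN-, markers of the cell types in that fraction are given for the same NeuN+ libraries. The summed CPM of 5 oligodendrocyte markers was 119 to 123 in WT and 117 to 135 in Mutyh-/-, of 5 astrocyte markers 32.6 to 44.3 and 34.3 to 37.1, and of 5 microglial markers 84.0 to 86.0 and 84.6 to 88.8. The sum of 3 precursor markers was 17.3 to 19.3 and 16.8 to 18.7, and that of 3 endothelial markers 1.52 to 2.45 and 1.28 to 2.1. The sum of 3 choroid plexus markers was 13.1 to 20.9 in WT and 11.5 to 13.4 in Mutyh-/-, with Ttr at 4.96 ± 4.06 and 1.29 ± 0.415 CPM. The sum of 6 neuronal markers was 4460 to 4810 in WT and 4850 to 5190 in Mutyh-/-, without overlap, and rests mainly on Syt1 and Rbfox3. The markers of inhibitory neurons had lower means in Mutyh-/-, with Gad1 at 74.8 ± 3.93 in WT and 60.2 ± 9.24 in Mutyh-/- and Gad2 at 46.0 ± 2.25 and 35.6 ± 5.06. These lower means were not particular to Mutyh-/-. In NeuN+ of DKO, Gad1 was 63.1 ± 1.35, Gad2 37.7 ± 1.94 and Ttr 2.50 ± 1.84 CPM. In NeuN+ of Ogg1-/- they were 68.1 ± 5.23, 40.7 ± 2.02 and 1.72 ± 0.733 CPM. The oligodendrocyte, astrocyte and microglial sums rest mainly on Mbp, on Slc1a3, and on Cx3cr1 and P2ry12, in that order. By gene, the oligodendrocyte markers had a median log2 difference of Mutyh-/- from WT of -0.19 (-0.26 to 0.11). The astrocyte markers had a median of -0.3 (-0.45 to -0.01). None of the markers summed so far was called between WT and Mutyh-/- in NeuN+. The sum of 3 dentate granule neuron markers was 143 to 169 in WT and 174, 181 and 127 in Mutyh-/-, in order of replicate. The sum of 4 genes of dividing cells, which rests mainly on Mki67, was 7.74 to 8.75 in WT and 9.20 to 10.1 in Mutyh-/-, without overlap. It was also above WT in Ogg1-/- (9.15 to 9.61) and DKO (8.84 to 10.4). The part of these differences in the Dnmt3b values was not tested.

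**Figure D4:**
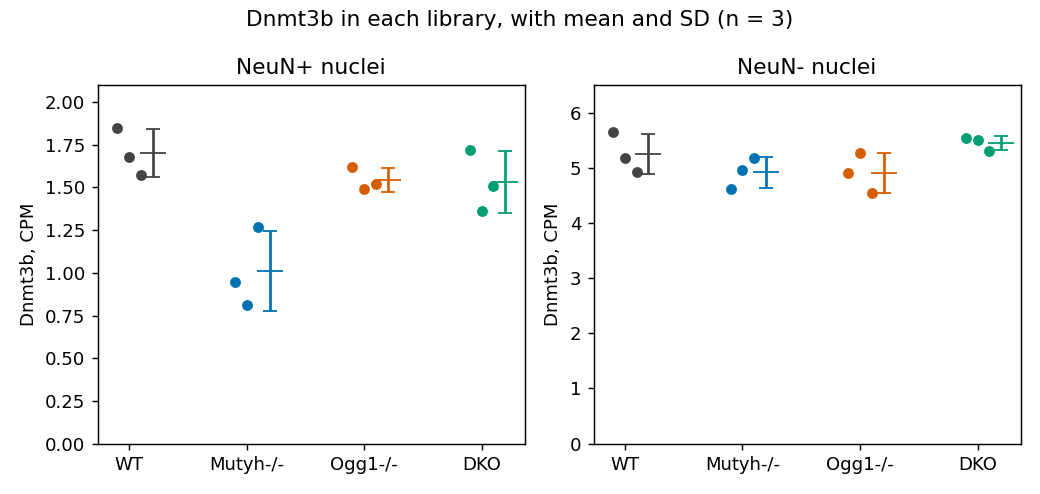
Dnmt3b in CPM in each NeuN+ library (left) and NeuN- library (right) by genotype, on separate axes that start at 0; points are libraries, and the bars beside them give the mean and SD of 3. The 3 Mutyh-/- NeuN+ libraries (0.813 to 1.27) lie below all other NeuN+ libraries (1.36 to 1.85), and in NeuN- each knockout overlaps WT.

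The other comparisons with an unadjusted p under 0.05 were small. Dnmt3a was 224 to 231 CPM in Ogg1-/- NeuN+ against 193 to 218 in WT, without overlap (log2 difference 0.13, unadjusted p = 0.0406, adjusted p = 0.374). Dnmt1 was 34.9 to 38.6 CPM in Ogg1-/- NeuN- against 37.7 to 41.3 in WT, with overlap (-0.12, unadjusted p = 0.0385, adjusted p = 0.388). In those NeuN- libraries the summed CPM of 5 oligodendrocyte markers was 5040 to 5670 in Ogg1-/- against 5910 to 6650 in WT, and of 5 astrocyte markers 906 to 1030 against 774 to 856. The part of this shift in the Dnmt1 value was not tested.

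In NeuN+, Uhrf1 was 0.243 to 0.446 CPM in WT and 0.174 to 0.377 in Mutyh-/-, where the lowest value rests on 9 counts. Ogg1-/- ranged from 0.394 to 0.515 and DKO from 0.375 to 0.485. In NeuN- the values were 1.61 to 1.80 CPM in WT and 1.46 to 1.84 in Mutyh-/-. They were 1.44 to 1.73 in Ogg1-/- and, in DKO, 1.26 to 2.16. Every knockout range overlapped that of WT in both fractions. The DKO NeuN- libraries, with 2.16, 1.48 and 1.26 CPM, spread most. In the same 3 libraries the summed CPM of 3 choroid plexus markers was 5.90, 54.7 and 181, and that of 4 genes of dividing cells was 10.9, 8.09 and 8.15. The part of either in the Uhrf1 values was not tested.

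**Figure D5:**
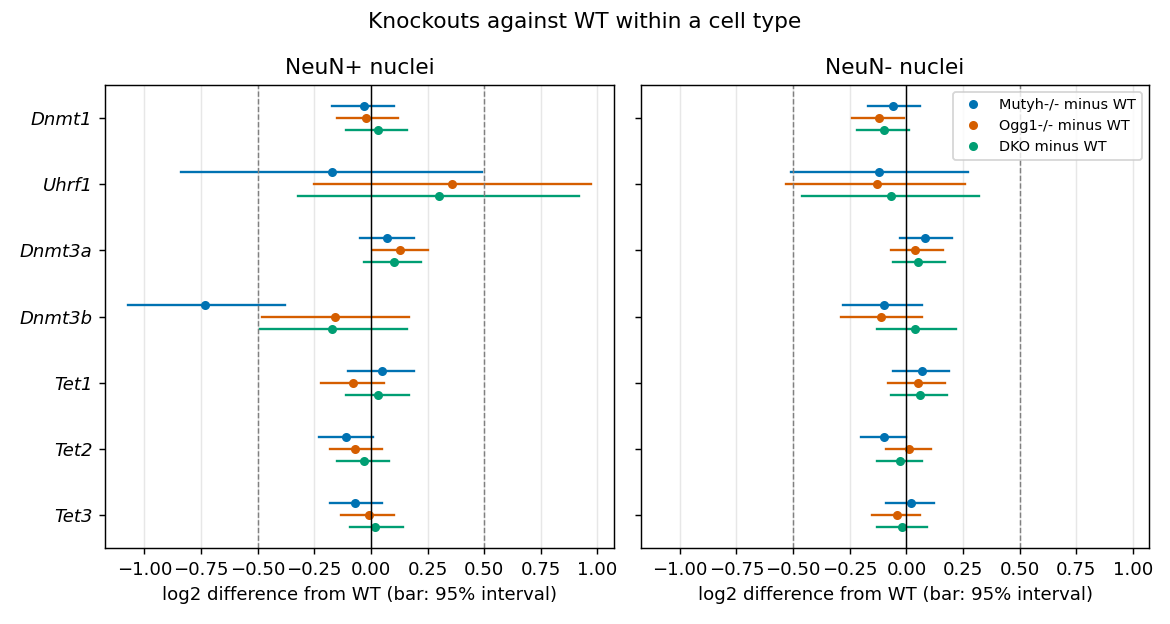
Log2 difference of each knockout from WT within NeuN+ (left) and NeuN- (right) nuclei for the 7 genes; points are edgeR estimates, bars 95% intervals, the solid line marks 0 and dashed lines the call limits of -0.5 and 0.5. Apart from Dnmt3b in Mutyh-/- NeuN+ at -0.73, every point lies within the dashed lines, and the bars of Uhrf1 are the widest.

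The knockouts were also compared with each other, and 0 of 7 members were called. In NeuN+ the background was 0.216% for DKO minus Ogg1-/-, 0.139% for DKO minus Mutyh-/- and 0.485% for Ogg1-/- minus Mutyh-/-. In NeuN- it was 0.132%, 0.122% and 0.521%. The unadjusted p was under 0.05 for Dnmt3b in both NeuN+ comparisons with Mutyh-/- and for Tet2 in Ogg1-/- minus Mutyh-/- of NeuN- (log2 difference 0.11, adjusted p = 0.398). DESeq2 called 0 of 7 in each of these comparisons.

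Departure from additivity, the DKO effect less the sum of the Mutyh-/- and Ogg1-/- effects, was called for 0 of 7 members, against 0.159% of all genes in NeuN+ and 0.119% in NeuN-. The lowest p in NeuN+ was that of Dnmt3b (0.72 ± 0.22, unadjusted p = 0.00566, adjusted p = 0.521), and it was also the member with an unadjusted p under 0.05 in NeuN- (0.26, adjusted p = 0.619). A difference between NeuN+ and NeuN- in the effect of a genotype was called for 0 of 7 members, with backgrounds of 0.0209% for Mutyh-/-, 0.0537% for Ogg1-/- and 0.0567% for DKO. Dnmt3b in Mutyh-/- was the single member with an unadjusted p under 0.05 among these. DESeq2 called 0 of 7 in these tests as well.

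Genes that act with the members were listed in 4 groups. Of 12 partners of the writers, 1 was called higher in WT NeuN+ and 0 in NeuN-, and by adjusted p alone 3 were higher in each. Of all genes, 21.3% were called higher in NeuN+ and 21.6% in NeuN-, or 36.1% and 36.3% by adjusted p alone. The counts lie under these shares, but with 12 genes the gap is of few genes and was not tested. The counts of the next 2 lists are read against the same shares. The called gene was Cdca7l, a relative of the chromatin remodelling factor Cdca7, at 3.63 ± 0.255 CPM in NeuN+ and 1.29 ± 0.284 in NeuN- (log2 difference 1.48, adjusted p = 6.52e-08). Cdca7 itself stood at 1.19 ± 0.0748 and 1.82 ± 0.0702 CPM (-0.62, adjusted p = 0.00348). Zfp57, a zinc finger factor that keeps methylation at imprinted genes, stood at -0.85 (adjusted p = 8.65e-10), under the fold limit. Uhrf2, the relative of Uhrf1, had a log2 difference of 0.17 (adjusted p = 0.00191), the opposite sign to Uhrf1.

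In the demethylation route, 11 of 12 genes could be tested, and 1 was called higher in WT NeuN+ and 3 in NeuN-. Gadd45b, an activity-induced gene linked to demethylation in neurons, was higher in NeuN+ (1.12, adjusted p = 3.73e-05). Idh1 and Idh2, whose products make the 2-oxoglutarate that TET enzymes need, were higher in NeuN- (-1.74 and -1.5), as was Cxxc5, a CpG-binding factor (-1.69). Tdg, the glycosylase that removes the oxidised bases made by TET enzymes, had a difference of -0.15 with an adjusted p of 0.0697. Of 8 methyl-CpG-binding and zinc finger genes 0 were called, and Mbd5 (0.85) and Mbd6 (-0.68) had the lowest p in that list. The median differences of these 3 lists were -0.02, -0.15 and -0.08, against -0.014 over all genes. The fourth list held genes that supply the methyl donor.

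In the 6 comparisons with WT, 0 genes of the 4 lists were called. Pcna, the sliding clamp that DNMT1 binds, came nearest, at -0.57 ± 0.12 in DKO NeuN+ (unadjusted p = 3.82e-04, adjusted p = 0.0623). Mat2b was -0.26 in Ogg1-/- NeuN+ (adjusted p = 0.0844), and Zbtb38, which binds methylated DNA, was 0.22 in Mutyh-/- NeuN- (adjusted p = 0.138).

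The genes most like each member over the 24 libraries were ranked by Pearson's r of log2 CPM among 21467 genes. These r describe mainly the gap between the fractions, since the libraries fall into 2 clusters by cell type, and they carry no test. The genes were picked over the same 24 libraries, so their r within a fraction is no separate evidence. For Tet1 the nearest were Cldn34c1, Trem2 and Ppp2r5a, for Dnmt3b Gm44860, Svil and C730002L08Rik, and for Uhrf1 Bckdha, Mad1l1 and Gipr. Within the 12 NeuN+ and the 12 NeuN- libraries, r of Tet1 with Trem2, a receptor of microglia, was 0.72 and 0.66, of Dnmt3b with Svil 0.92 and 0.073, and of Uhrf1 with Bckdha 0.83 and 0.52. The nearest to Dnmt3a were Macroh2a1 (0.73 and 0.95 within the fractions), Ssh1 and Proser3, to Dnmt1 Ftl1-ps1, Epo and Tada1, to Tet2 4931406C07Rik, Mtx3 and Zfp655, and to Tet3 Sulf2, Hs6st1 and Gm6564. Among the members themselves, r reached 0.77 for Dnmt3b with Tet2 in NeuN+ and 0.72 for Dnmt3a with Tet1 in NeuN-, against 0.19 and -0.30 for the same pairs in the other fraction.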

How the data were processed

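Nuclear RNA-seq counts of 24 libraries were used. According to the paper and the submitters' processing notes, the authors aligned reads to GRCm38 with HISAT2 2.1.0 and deposited raw counts per gene from featureCounts. The handling of strand and multiply aligned reads in this counting is not given in the sources used here.

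Counts were analysed with R 4.3.3 and edgeR 4.0.16 (filterByExpr, TMM, quasi-likelihood test, Benjamini-Hochberg over all genes tested), within each cell type for genotypes and over all 24 libraries for cell types and CPM. A feature was called at adjusted p under 0.05 with a log2 difference beyond 0.5 (genotypes) or 1 (cell types) in size, and by adjusted p alone for differences between cell types in a genotype effect. Exonic lengths came from GENCODE vM21 and upstream sequences from RefSeq. Correlations used log2(CPM + 0.1) of genes at 1 CPM or more on average. The scripts were tested on simulated counts. Alternatives included DESeq2 1.42.0. Figures were drawn with matplotlib 3.10.9.

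The members and gene lists were chosen with earlier results of these data known. Named genes were the 7 members, called genes of the lists or those with the smallest p, and the 3 genes most like each member. Uhrf2, Cdca7, Tdg, Ttr, Gad1, Gad2, Syt1, Rbfox3, Mbp, Slc1a3, Cx3cr1, P2ry12 and the pairs of members with high r were named after their values were seen. The cell-type result of the methyl donor list is not reported here.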

Additional observations from a re-analysis of the deposited data

How the results depend on the processing

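Depth limited Uhrf1 and Dnmt3b most, with 9 to 42 and 42 to 129 counts per NeuN+ library. The cell-type calls of Uhrf1, Tet1 and Dnmt3b were kept in all 4 genotypes under every alternative that could test them, and Uhrf1 could not be tested with at least 10 counts in every library. In WT without 1 library, Uhrf1 ranged from -2.48 to -2.07, Tet1 from -1.67 to -1.61 and Dnmt3b from -1.69 to -1.57. With adjusted p alone, 6 members passed between cell types in WT, 7 in Mutyh-/-, 7 in Ogg1-/- and 6 in DKO, in place of 3, by the construction of the looser limit. The order of levels held in 56 of 56 gene and group places per genomic span.

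The number of members called in Mutyh-/- against WT of NeuN+ was 0, and 1 (Dnmt3b) with DESeq2, library totals, no filter on low counts and the likelihood ratio test, and the cause was not tested. Without 1 library that number was 0 to 1, as was that of Ogg1-/- against Mutyh-/- of NeuN+ and that of the Mutyh-/- effect in NeuN+ minus NeuN-. Scaling by library totals turned 3 differences near 0, Tet3 in DKO NeuN+ (-0.00146), Tet3 in Mutyh-/- NeuN- (-0.0237) and Tet2 in Ogg1-/- NeuN- (-2.59e-05), and the cause was not tested. Leaving out 1 library turned the sign of 11 uncalled differences from WT. In NeuN+ these ranged from -0.389 to 0.0755 for Uhrf1 in Mutyh-/-, from -0.066 to 0.0116 for Dnmt1 and from -0.0565 to 0.0358 for Tet3 in Ogg1-/-, and from -0.024 to 0.0801 for Dnmt1, from -0.0394 to 0.0709 for Tet1 and from -0.0218 to 0.0707 for Tet3 in DKO. In NeuN- they ranged from -0.00752 to 0.0333 for Tet3 in Mutyh-/-, from -0.0098 to 0.0226 for Tet2 in Ogg1-/-, and from -0.00188 to 0.0983 for Dnmt3b, from -0.335 to 0.0851 for Uhrf1 and from -0.0587 to 0.0104 for Tet3 in DKO.

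Counts over all genes moved more than those of the members. In NeuN+, 129 genes were called in Mutyh-/- (385 by DESeq2, 625 with no filter, 564 by the likelihood ratio test and 272 with only the 2 genotypes compared), 173 in Ogg1-/- (308 with no filter, 332 by the likelihood ratio test and 305 with 2 genotypes) and 91 in DKO (178 by DESeq2, 252 with no filter, 275 by the likelihood ratio test). In NeuN-, 87 were called in Mutyh-/- (226 by DESeq2), 73 in Ogg1-/- (169 by DESeq2) and 37 in DKO (171 by DESeq2 and 10 with 2 genotypes). Library totals moved the share of lower calls in Mutyh-/- NeuN+ from 31.0 to 45.2%. In WT, 14371 genes were called between cell types, and 8615 with at least 10 counts in every library, which tests fewer genes.

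Within a genotype, same-numbered libraries of both cell types deviated together weakly, with a mean r of 0.18 (0.0091 to 0.35) and 9 of 12 pairs above 0.1. Libraries of different number had a mean r of -0.089, with 2 of 24 pairs above 0.1. Same-numbered libraries of different genotypes did not deviate together (mean r of -0.004 in NeuN+ and 0.058 in NeuN-). The labels do not say what a shared number marks, so the main fits held no pairs, and fits with a block are given beside them. With the replicate number as a block, 0 members were called in each comparison of genotypes and 3 in each of cell types, as without it, and Dnmt3b in Mutyh-/- NeuN+ was -0.74 with an adjusted p of 0.0634. Over all genes the block within a cell type moved the count in DKO from 91 to 171 in NeuN+ and from 37 to 63 in NeuN-. The block of pairs moved the count of the difference between cell types in a genotype effect from 7 to 31 for Mutyh-/- and from 19 to 53 for DKO.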
